A study of Homo sapiens with 6 samples.

Results

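The human keratin genes were followed in SW839, an established renal cell carcinoma line, after knockdown of RNF25. They were taken as every row of the deposited table of normalized counts whose symbol is KRT, a number and at most 1 of the letters A to C, which gave 37 of 30267 genes. Pseudogenes, antisense genes and keratin-associated proteins were left out by that pattern. By the usual classes, 12 of the 37 are type I epithelial keratins, 6 are type I hair keratins, 14 are type II epithelial keratins and 5 are type II hair keratins. Only genes that reached 10 normalized counts in 3 or more libraries were tested, and 20 keratins passed while 17 did not. The 20 comprised 6 type I epithelial, 3 type I hair, 8 type II epithelial and 3 type II hair keratins.

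Total RNA depleted of ribosomal RNA was sequenced from cells carrying a hairpin against RNF25, a ubiquitin ligase (shRNF25, 3 libraries), and from cells carrying the pLKO control vector (shControl, 3 libraries). According to the study's methods, stable lines were made by lentiviral infection and puromycin selection. The labels name a single hairpin and no batch. The library names of the controls are of unlike form, while those of shRNF25 differ only in a final number. What the unlike names stand for is not said. Nothing in the labels says that the libraries came from separate cultures, so p-values measure the spread between these libraries, which may be technical. The treatment text of all samples, controls included, mentions the RNF25 hairpin plasmid, so the groups rest on titles and genotype labels.

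Keratins are the intermediate filament proteins of epithelial cells. A type I (acidic) chain pairs with a type II (basic) chain, and filaments are built from these pairs. KRT8 and KRT18 are the pair of simple epithelia, joined by KRT7 and KRT19 in ducts and tubules. KRT6A, KRT6B, KRT16 and KRT17 are known as keratins of wounded or rapidly renewing epidermis, and the hair keratins build the shaft of hair and the nail. Genes of type II chains lie in a cluster on chromosome 12 and those of type I chains on chromosome 17, except KRT18, which lies beside KRT8.

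RNF25 itself had normalized counts of 694.2, 533.5 and 536.4 in shControl and 214.1, 245.7 and 265.0 in shRNF25. The groups did not overlap, and the difference was -1.27 on the log2 scale (SE 0.15, limma adjusted p = 0.000585). Libraries held 18647460 to 19943154 reads on genes. Pairs of shRNF25 libraries correlated at 0.994 across genes on the log2 scale, and pairs of shControl libraries at 0.976 to 0.987, so the control libraries were less alike. Of the renal markers, EPCAM lay between 4205 and 5912 normalized counts and PAX8 between 76.7 and 140.3. CA9, a defining marker of clear cell tumours, reached at most 50.7, CDH6 at most 13.0 and LHX1 at most 4.62, and none of these 3 passed the filter.

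Of the 20 tested keratins, 7 were lower and 2 were higher in shRNF25 at the call, which asked for an adjusted p under 0.05 and a change of 1.5-fold or more (limma on log2(normalized count + 1), Benjamini-Hochberg over 16554 genes). Across all tested genes 15.7% were called, 7.1% lower and 8.65% higher. KRT75, KRT6B, KRT6A, KRT34, KRT17, KRT81 and KRT7 were lower, and KRT4 and KRT15 were higher. The median log2 fold change of the 20 was -0.60, beside -0.01 over all tested genes. For 12 of the 20 no shRNF25 library fell within the control range, beside 42.5% of all tested genes. In bulk RNA, fewer cells that express a keratin and less of its RNA per cell cannot be told apart. Log2 fold changes on this scale understate the change of genes with few reads. A two-sided exact permutation test of 3 against 3 cannot go below p = 0.1, which was its value for each of those 12 keratins.

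**Figure D1:**
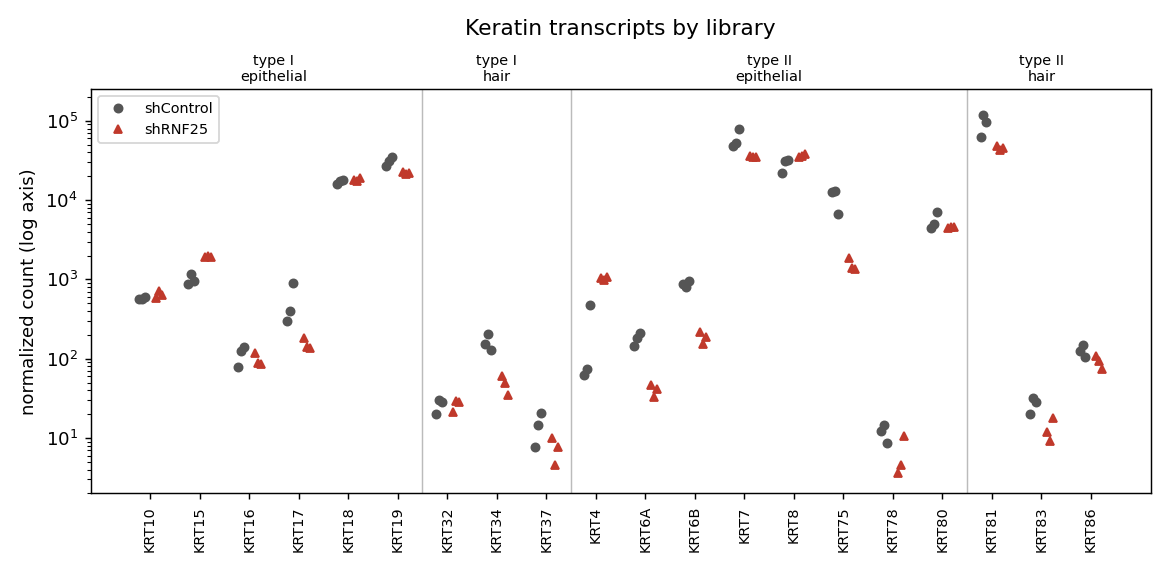
Normalized count (log axis) of the 20 tested keratins in each library, with shControl libraries as grey circles and shRNF25 libraries as red triangles and with the classes separated by lines. For KRT75, KRT6A, KRT6B, KRT34 and KRT17 all 3 shRNF25 libraries sit below all 3 shControl libraries, and for KRT4 and KRT15 above.

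KRT6A and KRT6B are near-identical type II genes, and reads of one can be split between them. Their 1695 coding bases were 97.5% identical in the GENCODE 29 transcripts, with 43 differing bases. KRT6C, the third copy, matched KRT6A at 97.9% and KRT6B at 98.5%. The stretch of 60 coding bases within 1 exon that held the most differences, coding bases 664 to 723, is shown to let the 3 copies be compared. Capitals mark the 9 positions at which the 3 are not all alike. All 3 lie on the minus strand of chromosome 12 of GRCh38, at 52491554 to 52491613 for KRT6A, 52450438 to 52450497 for KRT6B and 52472098 to 52472157 for KRT6C.
KRT6A: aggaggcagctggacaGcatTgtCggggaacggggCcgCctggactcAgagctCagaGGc
KRT6B: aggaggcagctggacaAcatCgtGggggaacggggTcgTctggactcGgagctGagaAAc
KRT6C: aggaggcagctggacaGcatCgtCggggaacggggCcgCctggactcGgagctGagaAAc
Of the 50-base words in the KRT6A transcript 39.1% also occurred in a transcript of another gene, mostly KRT6C and KRT6B, and of those in KRT6B 47.1%. How the authors' counting treated such reads is not given in the sources used here.

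KRT6B had 866.7, 791.1 and 958.4 normalized counts in shControl and 216.0, 154.2 and 185.9 in shRNF25. The groups were far apart, with a log2 fold change of -2.24 (SE 0.15, limma adjusted p = 3.19e-05). KRT6A had 143.7, 182.6 and 208.3 in shControl and 46.5, 33.2 and 41.0 in shRNF25, again without overlap, at -2.12 (SE 0.20, limma adjusted p = 0.000214). KRT6C had at most 3 reads in any library, and 7 and 6 reads in all over the control and shRNF25 libraries.

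KRT17, a type I partner of the KRT6 chains, had 300.7, 404.3 and 890.4 normalized counts in shControl and 180.4, 142.2 and 135.4 in shRNF25. All shRNF25 libraries were lower, and shControl replicate 3 was the highest control. The log2 fold change was -1.65 (SE 0.34, limma adjusted p = 0.00904), and without that library -1.20, still called. KRT16, the other type I chain of this group, had 78.5, 126.2 and 140.3 in shControl and 119.4, 88.7 and 85.8 in shRNF25. Its groups overlapped, and -0.20 (95% interval -0.75 to 0.34) did not pass (limma adjusted p = 0.585). KRT16 and KRT17 share 22.0% and 17.4% of their 50-base words with other genes, chiefly their pseudogenes and KRT14.

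KRT75, known from the companion layer of the hair follicle, showed the largest fall of the 20. It had 12687, 13090 and 6743 normalized counts in shControl and 1857, 1408 and 1358 in shRNF25. The lowest control, replicate 3, was still above every shRNF25 library. The log2 fold change was -2.77 (SE 0.24, limma adjusted p = 0.000141), and the shRNF25 mean was 14.2% of the control mean. KRT75 lies on chromosome 12 from 52424070 to 52434525 on the minus strand, next to KRT6B, and AC055736.1 overlaps 221 bases of its exons on the other strand. The counting's strand setting is not given in the sources used here, so reads of the 2 genes cannot be told apart.

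**Figure D2:**
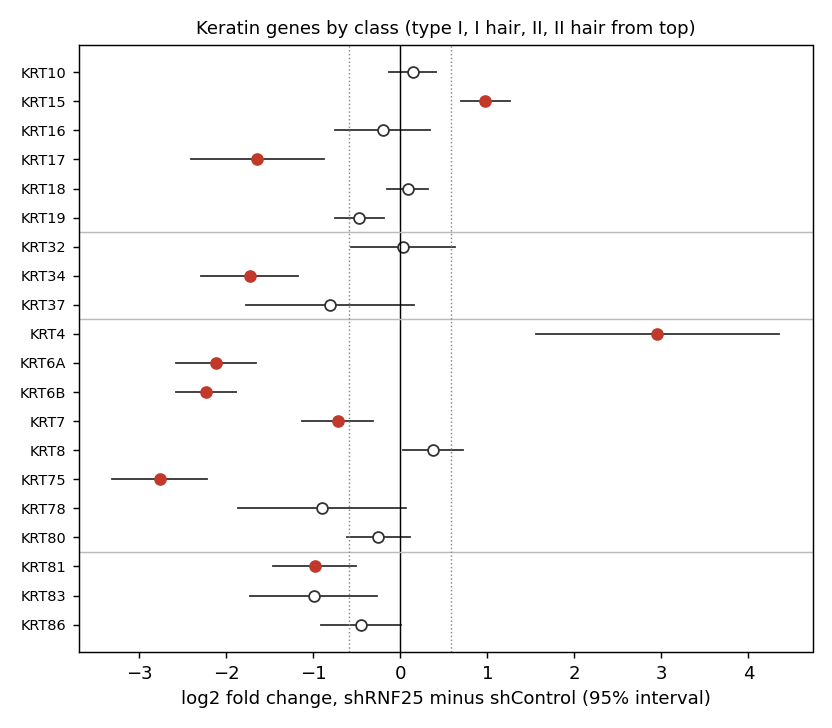
Log2 fold change (shRNF25 minus shControl) of each tested keratin with its 95% interval from limma; filled points passed both thresholds and dotted lines mark a 1.5-fold change. Classes are separated by lines in the order type I epithelial, type I hair, type II epithelial and type II hair, and the filled points run from KRT75 at -2.77 to KRT4 at 2.95.

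KRT4 (chromosome 12, 52806549 to 52814551, minus strand), a chain of the mucosal epithelium of mouth and oesophagus, rose. It had 63.0, 74.9 and 474.9 normalized counts in shControl and 1030, 969 and 1075 in shRNF25. Control replicate 3 stood apart from the other two, while the shRNF25 libraries lay close together. The log2 fold change was 2.95 (SE 0.62, limma adjusted p = 0.00986) and 3.88 without shControl replicate 3. It was 2.43 without shControl replicate 1 and 2.55 without replicate 2 (adjusted p = 0.0467), 2.36 by edgeR (adjusted p = 0.0253) and 2.33 by DESeq2 (adjusted p = 0.0461). KRT15, a type I chain of basal keratinocytes, had 881.0, 1176 and 943.3 in shControl and 1941, 1985 and 1926 in shRNF25. Its groups lay apart at 0.97 (SE 0.13, limma adjusted p = 0.000987).

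Among the hair keratins KRT81 (chromosome 12, 52285913 to 52291534, minus strand), a cortex keratin, was the most abundant. Its normalized counts were 62912, 119662 and 96151 in shControl and 47817, 42444 and 45897 in shRNF25. The controls spread over a range wider than their distance from the shRNF25 libraries, and no library crossed. The log2 fold change was -0.99 (SE 0.21, limma adjusted p = 0.0111), the call being lost on quantile normalization (-0.54, adjusted p = 0.192) and without shRNF25 replicate 2 (adjusted p = 0.0526). KRT81 shares 44.6% of its 50-base words with other genes, mainly KRT86.

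KRT34 (chromosome 17, 41377650 to 41382403, minus strand), a type I hair keratin, had 154.8, 205.2 and 129.5 normalized counts in shControl and 61.0, 49.9 and 35.3 in shRNF25. Its groups did not overlap, and it was lower at -1.73 (SE 0.25, limma adjusted p = 0.00158). KRT83 had 19.9, 31.8 and 28.1 in shControl and 11.8, 9.24 and 18.1 in shRNF25, without overlap. Its log2 fold change of -0.996 (95% interval -1.72 to -0.27) did not pass (limma adjusted p = 0.0565). KRT86 stood at -0.45 (limma adjusted p = 0.147), KRT37 at -0.81 (adjusted p = 0.210) and KRT32 at 0.03 (adjusted p = 0.9496), each with overlapping groups. Of the 6 tested hair keratins 2 were lower and 0 higher by limma, edgeR and DESeq2 alike, and 0 were higher at an unadjusted p under 0.05. Of the 14 tested epithelial keratins 5 were lower and 2 higher, with a median of -0.36, beside -0.90 for the hair keratins. That is 50% of the epithelial and 33.3% of the hair keratins called, beside 15.7% of all tested genes. The hair median draws on genes with few reads: KRT37 had at most 19 in a library, KRT83 at most 31 and KRT32 at most 32. KRT86 shares 39.2% of its 50-base words with other genes, mainly KRT81. The difference between classes was not tested.

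KRT7 (chromosome 12, 52232520 to 52252186, plus strand), a chain of simple ductal epithelia, had 47464, 53033 and 79440 normalized counts in shControl and 36314, 34768 and 35371 in shRNF25. The groups did not overlap, at -0.72 (SE 0.18, limma adjusted p = 0.0222). This call was the least steady: without shControl replicate 3 the value was -0.50, under the fold threshold, and without any 1 of the shRNF25 libraries the adjusted p lay between 0.0813 and 0.0865. On quantile normalization the value was -0.22 (adjusted p = 0.369). KRT7-AS, the antisense gene whose exons overlap those of KRT7 by 282 bases, was also lower, at -0.86 (SE 0.16, limma adjusted p = 0.00582), with 870.0, 695.6 and 1080 normalized counts in shControl and 453.8, 467.3 and 512.8 in shRNF25. The strand setting of the counting is unknown here, so reads of the 2 cannot be told apart.

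The other simple epithelial chains did not pass both thresholds. KRT19 had 26663, 30880 and 35236 in shControl and 22663, 21616 and 22211 in shRNF25. It was lower at -0.47 (SE 0.13, limma adjusted p = 0.0278) without overlap, but under the 1.5-fold threshold. KRT8 had 22206, 31324 and 31848 in shControl and 35088, 36460 and 38009 in shRNF25. It was above every control library in each shRNF25 library, at 0.38 (95% interval 0.03 to 0.72), with a limma adjusted p of 0.111. On quantile normalization KRT8 was called higher (0.77, adjusted p = 0.00804). KRT18 had 15768, 17321 and 17866 in shControl and 17847, 17393 and 18790 in shRNF25. Its interval ran from -0.15 to 0.32 around 0.09. Exons of KRT8 and KRT18 overlap by 525 bases on opposite strands, and 39.7% and 31.8% of their 50-base words occur elsewhere, mainly in their own pseudogenes.

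The ratio of KRT7 to KRT8, taken per kb of annotated exons, was lower in every shRNF25 library than in every control, being 3.59, 2.85 and 4.19 in shControl and 1.74, 1.60 and 1.56 in shRNF25. KRT8 over KRT18 per kb was 0.66, 0.85 and 0.83 in shControl and 0.92, 0.98 and 0.95 in shRNF25. On the length of a selected principal transcript it was 1.25, 1.61 and 1.59 in shControl and 1.75, 1.87 and 1.80 in shRNF25, so which of the pair is higher turns with the length, while shRNF25 lay above shControl on both. Of the remaining chains that passed the filter, KRT10, a suprabasal epidermal keratin, stood at 0.14 (adjusted p = 0.433), KRT80 at -0.25 (adjusted p = 0.297) and KRT78 at -0.90 (adjusted p = 0.166), with overlapping groups (limma).

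Levels were compared between genes per kb of the union of each gene's annotated exons. In shControl, KRT81 had the highest level, 48164 ± 14782 normalized counts per kb (SD, n = 3). KRT7 followed with 14654 ± 4173 and KRT19 with 13239 ± 1835, whose library ranges overlapped, then KRT18 with 5278 ± 338, KRT75 with 4664 ± 1529 and KRT8 with 4136 ± 788. KRT75 overlapped both of its neighbours, while the lowest KRT18 value was above the highest KRT8 value. This last order turns round on either principal transcript's length, where KRT8 had 16216 (selected) or 13386 (longest) and KRT18 10874 per kb. In shRNF25 KRT81 stayed first at 23528 ± 1411, KRT19 (9488 ± 225) came before KRT7 (8670 ± 190), and KRT75 was ranked 7 with 663 ± 118. On either principal transcript's length KRT7 came before KRT19 in both groups, at 20231 and 15945 per kb in shRNF25. These ranks depend on the length used: on 1 principal transcript per gene, chosen after the values had been seen, KRT8 ranked 4 in shControl and 2 in shRNF25 (3 on the longest principal transcript), because the exon union of KRT8 is 3.92 times as long as that transcript.

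Summed per kb, type II keratins had 54443, 86859 and 79122 in shControl and 41066, 37880 and 40068 in shRNF25. Type I keratins had 16944, 19365 and 21516 in shControl and 15960, 15404 and 16043 in shRNF25. Both sums were lower in shRNF25 in all libraries, by -0.89 (type II) and -0.29 (type I) on the log2 scale. The sum of normalized counts over all genes was also lower without overlap, by -0.21, and the type I sum without division by length was -0.22, close to that. KRT81 made up 65.6% of the mean type II sum in shControl (45.7% on the selected principal transcript's length and 47.0% on the longest), and without it the log2 figure is -0.65. The figure for type II was also -0.65 on the principal transcript's length. Without KRT19, its most abundant member, the type I value was 0.065, so the type I decrease rests on that gene. Summed hair keratins had 32782, 62258 and 50009 in shControl and 24896, 22097 and 23877 in shRNF25. As a share of all reads on genes, keratin reads were 0.886%, 1.35% and 1.39% in shControl and 0.964%, 0.893% and 0.939% in shRNF25, which overlapped.

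**Figure D3:**
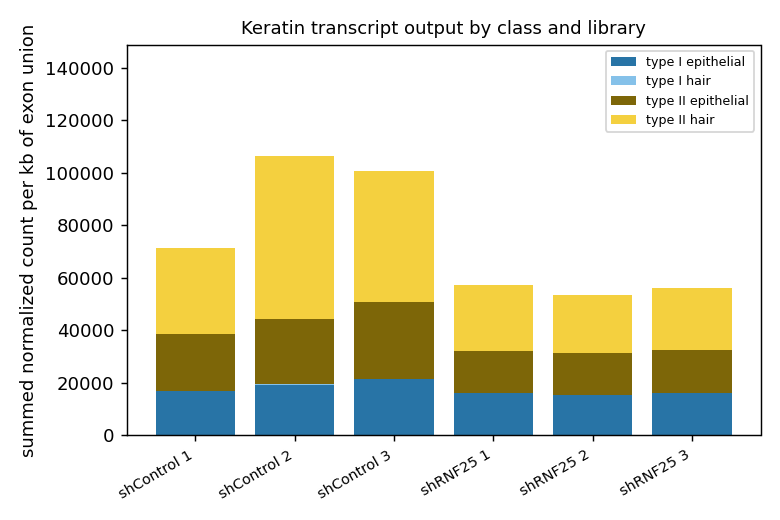
Summed normalized count per kb of exon union of the 4 keratin classes in each library, stacked. The shRNF25 bars run from 53284 to 57026 and the shControl bars run from 71386 to 106224, with type II hair keratins, which is mostly KRT81, the tallest layer in every library. This order of layers holds on the exon union only. On the selected principal transcript's length type II epithelial keratins had 46812, 55499 and 68889 in shControl and 43175, 42859 and 44127 in shRNF25. Type II hair keratins then had 32684, 62122 and 49912 in shControl and 24848, 22054 and 23838 in shRNF25, higher only in shControl replicate 2.

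Spread was larger in controls for 14 of the 20 keratins, with a median coefficient of variation of 23.3% in shControl and 16.2% in shRNF25. Over all tested genes it was larger in controls for 83.3% of them. shControl replicate 3 was the highest control for 12 of the 20 and replicate 1 the lowest for 14. Over all 16554 tested genes replicate 3 was the highest control for 5223 and replicate 1 the lowest for 6543. Replicate 1 was also the most frequent highest control over all genes, for 6731 of them.

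Of the 20 keratins on chromosome 12, 12 were tested and 5 were lower and 1 higher; of the 17 on chromosome 17, 8 were tested and 2 were lower and 1 higher. That is 50% and 37.5% called, beside 15.7% of all tested genes. KRT75, KRT6B and KRT6A lie in order with KRT6C between the last 2, and these 3 had the largest falls on chromosome 12. KRT4 lies further along, past KRT5, KRT74, KRT2 and KRT3, none of which passed the filter.

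**Figure D4:**
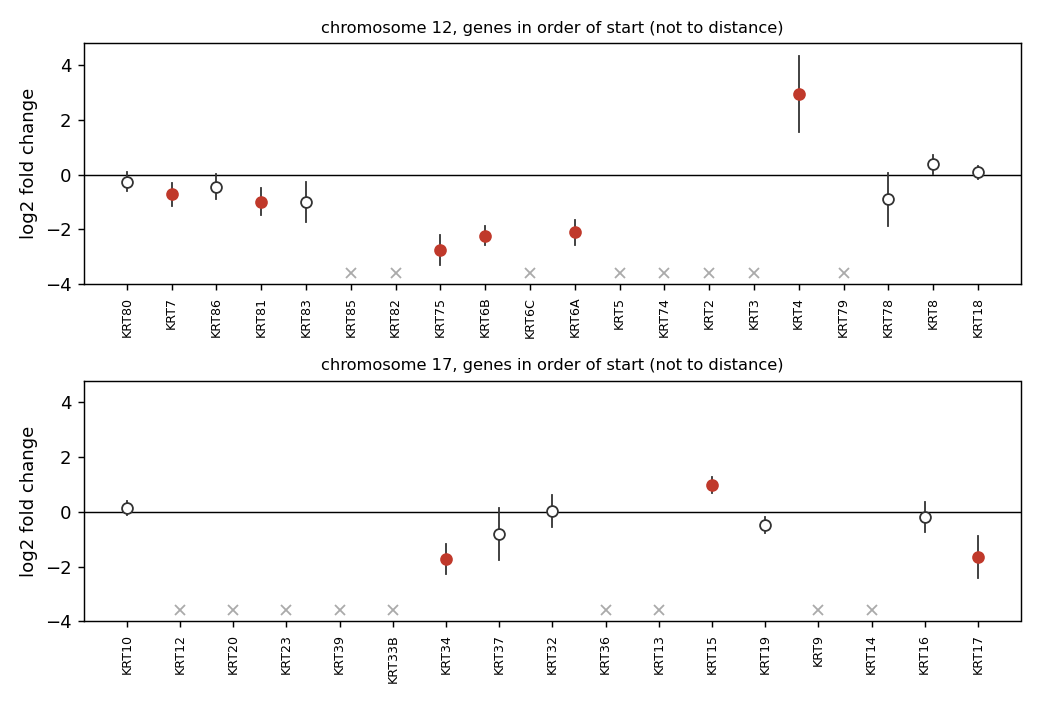
Log2 fold change (shRNF25 minus shControl, 95% interval) of keratins in gene order on chromosome 12 (upper) and chromosome 17 (lower). Filled points passed both thresholds, open points did not, and crosses at the foot mark keratins that were not tested.

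The 17 untested keratins had few reads, 5 of them reaching 10 normalized counts in some library. KRT23 had 9, 14 and 43 reads in shControl and 1, 0 and 1 in shRNF25, a ratio of 38.0 (95% exact interval 10.1 to 320, counting error only). KRT5, the basal keratin, had 19, 27 and 3 reads in shControl and 5, 3 and 5 in shRNF25, a ratio of 4.34 (2.32 to 8.72) that replicate 3 does not share. KRT79 had 5, 5 and 13 reads in shControl and 2, 0 and 4 in shRNF25. KRT20 had 3, 3 and 4 reads in shControl and 11, 7 and 7 in shRNF25, and KRT3 had 2, 2 and 5 reads in shControl and 13, 3 and 8 in shRNF25. Of the other 12, none had more than 4 reads in any library. KRT14, the usual partner of KRT5, had at most 1.

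The RefSeq promoter table (GRCh38.p14, 250 bases before to 50 after the start) gave a window for 20 of the 37 keratins, 7 of them tested. TATAAA was found, on either strand, in 3 of the 7 (KRT10, KRT34 and KRT37), beside 11.5% of 35116 windows. GGGCGG was found in KRT32, KRT37 and KRT75, beside 45.0%. TGANTCA was in none of the 7, beside 7.71%, and the NF-κB consensus was in none, beside 11.3%. These are letters in a window and say nothing of binding.

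Genes that go with keratin filaments were listed in groups, whose counts are to be read beside the 15.7% of all tested genes that were called. Of 11 tested desmosome genes, 3 were lower and 2 were higher. PKP1, a plakophilin, was lower at -0.86 (limma adjusted p = 0.000568), DSP, desmoplakin, at -0.60 (adjusted p = 0.0172) and JUP, plakoglobin, at -0.60 (adjusted p = 0.00684). The cadherin DSC3 (1.15, adjusted p = 0.00673) and periplakin PPL (0.97, adjusted p = 0.000479) were higher. The median was -0.17. Of 6 hemidesmosome genes 0 were called by limma, edgeR or DESeq2, with 0 at an unadjusted p under 0.05, PLEC standing at 0.20 (limma adjusted p = 0.491).

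Of 11 tested intermediate filament genes outside the keratins, 4 were higher and 0 lower by limma, edgeR and DESeq2 alike. At an unadjusted p under 0.05, 1 was lower by limma and edgeR and 0 by DESeq2. The limma median was 0.24. NEFL, a neurofilament chain, rose by 2.94 (limma adjusted p = 0.000176), VIM, vimentin, by 1.31 (adjusted p = 0.00805), BFSP1 by 1.28 (adjusted p = 0.00188) and SYNM, synemin, by 0.87 (adjusted p = 0.00265). VIM had 355.4 ± 133.0 normalized counts (SD, n = 3) in shControl and 831.9 ± 43.4 in shRNF25.

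Of 16 tested epithelial transcription factor genes, 4 were lower and 0 higher by limma and edgeR, and 5 lower and 0 higher by DESeq2. At an unadjusted p under 0.05, 2 were higher by limma, edgeR and DESeq2 alike. The limma median was -0.28. EHF stood at -1.33, GRHL3 at -1.20, MSX2 at -0.84 and OVOL1 at -0.75. Of 13 keratin-binding genes 2 were called, or 15.4%, close to the share over all genes. HSPB1, a small heat shock protein, was lower at -1.16 and EPPK1, epiplakin, at -0.999, while CDH1, E-cadherin, was -0.48 and not called at this fold (limma adjusted p = 0.0129). Of 7 tested cornified envelope genes, SBSN was lower (-1.66) and KLK5 (0.79) and FLG (0.75) higher. SPRR2D (-1.66) was called too, but it passed the filter only through the controls, with 15.5, 15.4 and 22.7 normalized counts in shControl and 7.29, 7.39 and 1.91 in shRNF25. Of 5 tested keratin-associated protein genes, which encode matrix proteins of the hair shaft, 4 were lower by limma and edgeR and 3 by DESeq2. KRTAP2-3 stood at -2.86, KRTAP3-1 at -2.32 and KRTAP1-5 at -2.26. KRTAP4-9 (-1.36) passed the filter only through the controls, so that only a fall could be seen. It is the gene that DESeq2 did not call, and only the 3 others are to be counted. KRTAP2-3 had 2084, 704.9 and 835.4 normalized counts in shControl and 165.8, 192.1 and 99.1 in shRNF25, so the controls differed widely yet did not overlap with shRNF25. Of 62 keratin pseudogene rows 8 were tested and 0 were called by limma, edgeR or DESeq2 (1 higher at an unadjusted p under 0.05).

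**Figure D5:**
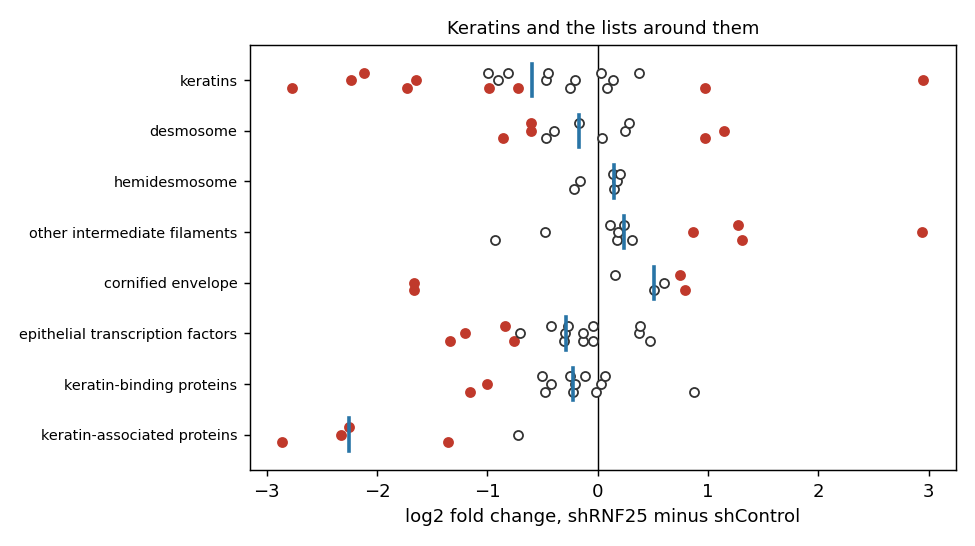
Log2 fold change (shRNF25 minus shControl) of each tested gene, with keratins and 7 lists in rows; filled points passed both thresholds and blue bars are medians. The called keratin-associated protein genes KRTAP2-3, KRTAP3-1 and KRTAP1-5 are lower, while for KRTAP4-9 only a fall could be seen. Called intermediate filament genes outside the keratins are all higher.

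Markers of other cells were not all absent. Of 7 fibroblast markers 3 were tested. COL1A1 had 847.8 to 1258 normalized counts and made up most of the list, COL3A1 had 5.396 to 6.156 in shControl and 126.5 to 193.5 in shRNF25, and the list's summed normalized count was 1114 to 1298 in shControl and 999.2 to 1189 in shRNF25, while COL1A2 was at most 2.21 and DCN at most 1.03. Of 5 endothelial markers 3 were tested. PECAM1 made up most of that list, with 349.9 to 466.3 in shControl and 399.0 to 549.4 in shRNF25. It was not called (0.17, limma adjusted p = 0.505). KDR was higher, while CDH5 had 73.0 to 198.6 in shControl and 3.64 to 8.31 in shRNF25. The endothelial list summed to 496.3 to 698.3 in shControl and 495.0 to 646.9 in shRNF25. COL3A1 and CDH5 passed the filter only through the group in which they were high, so no count is drawn from them. Leukocyte markers summed to 16.2 to 22.6 in shControl and 11.4 to 22.8 in shRNF25. Of 4 tested keratinocyte markers other than keratins, SBSN was lower and DSC3 and FLG higher, with sums of 340.0 to 526.2 in shControl and 725.3 to 760.6 in shRNF25, and TP63 at most 19.1. Their part in the keratin values was not tested.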

How the data were processed

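The authors aligned and counted reads and deposited normalized counts per gene symbol, a signal in which each library's counts were scaled by its size factor. The submitters' processing notes list fastp, HISAT2, HTSeq and GRCh38; the annotation and strand setting are not given in the sources used here. The deposited values gave whole reads for 100% of values (tolerance 0.01), so reads were recovered. Values as log2(normalized count + 1) were fitted with limma 3.58.1 in R 4.3.3 (lmFit, then eBayes with a trend), without covariates, on 16554 genes with at least 10 in at least 3 libraries, with Benjamini-Hochberg adjustment. A call needed an adjusted p under 0.05 and a change of 1.5-fold or more. The fits were tried on simulated counts with the same dispersion for all genes and both groups, which does not cover the larger spread of the controls here. Alternatives were edgeR 4.0.16 and DESeq2 1.42.0 on recovered reads, pseudocounts of 5 and 0.5, other filters, quantile and median-ratio scaling, a replicate block and each library left out. Positions and lengths are from GENCODE 29, matched by symbol. Levels per kb use the exon union, named first in the plan; after the values had been seen, lengths of the longest and of a selected principal transcript were also tried. The named genes were all tested keratins, untested keratins with at least 10 in a library, RNF25 and the 4 called genes of largest change per list, with VIM, CDH1, DSP, PLEC and JUP. The members and lists were chosen with earlier results of these data known. Proteins were not used here. Intervals of log2 fold changes are limma's, from the spread between libraries; those of read ratios cover counting error only.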

Additional observations from a re-analysis of the deposited data

How the results depend on the processing

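Across the 15 alternatives to the limma fit, the keratin genes called lower numbered 5 to 8 and those called higher 2 to 3; leaving out 1 library gave 5 to 8 and 2. KRT75, KRT6B, KRT6A, KRT34, KRT17, KRT4 and KRT15 kept their call and direction under all 15. Of 296 keratin fold changes under alternatives, 282 kept their direction and their call or lack of a call. KRT7 and KRT81 lost calls as given above, KRT83 was called on quantile normalization (-1.29) and without shControl replicate 1 (-1.18), KRT8 was called on quantile normalization (0.77), and KRT23 was called with no filter. KRT32 changed sign on quantile normalization (-0.20) and without shControl replicate 1 (-0.14), shRNF25 replicate 2 (-0.06) or shRNF25 replicate 3 (-0.03); with 1 library left out it ranged from -0.14 to 0.18, and it was never called. Among all genes, 898 were called higher with a minimum of 50, against 1432, and 748 to 1725 with 1 library left out. Called desmosome genes numbered 3 on quantile normalization and 3 on median-ratio rescaling, against 5, and 3 to 5 with 1 library left out. Hemidesmosome calls numbered 1 on quantile normalization and 0 to 1 with 1 library left out. Cornified envelope calls numbered 4 in the main fit. These include SPRR2D, which passed the filter only through the controls, so that only a fall could be seen. They numbered 2 with the minimum of 50 and 1 to 4 with 1 library left out. Keratin-binding calls numbered 2 to 4, against 2. The causes were not tested, save that the minimum of 50 tests fewer genes. Without KRT19 the type I sum was 0.065 in place of -0.29; on the length of the longest principal transcript the sums stood at -0.27 (type I) and -0.69 (type II), and on the selected transcript at -0.27 and -0.65.

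The sample titles give both groups replicate numbers 1 to 3, but the library names of the controls do not carry these numbers. Same-numbered libraries and the replicate block below therefore rest on the titles alone. Deviations from the group means correlated at -0.06, -0.09 and 0.05 for same-numbered libraries and at -0.14 to 0.18 for the other pairs. With 3 libraries per group these values cannot show whether same-numbered libraries share a culture or a preparation. With the replicate block 7 keratins were lower and 2 higher, the same 9 genes, and 1193 of all genes were lower and 1398 higher. Changes under 1.5-fold were not called whatever their p. KRT19 was among them. Its limma adjusted p was above 0.05 on quantile normalization (0.523), on median-ratio rescaling (0.0632) and with no filter (0.0590). It was also above 0.05 without shControl replicate 2 (0.0594) and without any 1 of the shRNF25 libraries (0.0989 to 0.121). Under the other alternatives, edgeR and DESeq2 among them, the adjusted p of KRT19 stayed under 0.05. A keratin with few reads has a wide interval.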
